A study of Mus musculus with 6 samples.

Results

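Genes that build the folding and secretion machinery of the endoplasmic reticulum (ER) were examined in 6 SMART-seq libraries of mouse regulatory T cells (Treg). The 44 genes were listed by name: ER chaperones and their co-chaperones, disulfide isomerases, sensors and factors of the unfolded protein response, the ER-associated degradation machinery, and the channel and peptidase through which secreted proteins enter the ER. All 44 had a row among the 24421 genes of the expression table, and 43 were among the 10436 genes tested, which were those at 1 FPKM or more in at least 2 libraries. Pdia5 reached 1 FPKM in 1 library and was not tested. FPKM counts sequenced fragments relative to the length of the transcript and the size of the library, so that levels of different genes can be set beside each other. In SMART-seq, polyadenylated RNA is reverse transcribed over its whole length and the cDNA is amplified before sequencing. Each group had 2 libraries, all from wild-type (WT) Treg of spleen and lymph nodes: unstimulated cells, stimulated cells, and cells stimulated in the presence of iBP, which the design names as an inhibitor of H2AK119ub1, the ubiquitin mark that Polycomb repressive complex 1 places on histone H2A. No group received iBP without stimulation, and the mark itself was not measured in these libraries. The sources used here do not state the strain, age or number of mice, the kind and length of stimulation or how much iBP was added, and the Kdm2b-deficient Treg named in the design were not analysed here.

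Proteins destined for the cell surface or for secretion enter the ER through the Sec61 channel, lose their signal peptide and are folded by Hspa5 (BiP), an Hsp70 whose ATP cycle is driven by J-domain co-chaperones, together with the Hsp90 protein Hsp90b1 and disulfide isomerases. Dnajb11 (ERdj3) is one of these J-domain proteins: it binds unfolded clients, hands them to Hspa5, and is found in a large ER complex with Hspa5, Hsp90b1, Hyou1, Sdf2l1, Pdia4, Pdia6, P4hb and Ppib. When unfolded proteins accumulate, the sensors Ern1 (IRE1), Atf6 and Eif2ak3 (PERK) raise the transcription of most of these genes together, through Xbp1, cleaved Atf6 and Atf4. Lymphocytes that secrete much protein, plasma cells above all, enlarge this machinery.

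Dnajb11 differed from the genes it works with. It fell with stimulation and was higher again in the libraries with iBP, at 79.2% of its unstimulated mean, while 1 of the 42 other tested members passed the test with stimulation. Few genes of any kind passed there (0.968% of the tested genes called higher and 0.326% lower), so that count does not set the other members apart. The member that passed was Pdia4, a disulfide isomerase of the same complex, which rose with stimulation with or without iBP. No other member passed in any of the 3 comparisons.

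The unfolded protein response is known to act through several promoter elements. The promoters of Dnajb11, Pdia4 and Hspa5 are printed because they hold, or do not hold, an exact match to one. Each run is the RefSeq window from 250 bases before to 50 bases after the start site, on the gene's own strand (GRCm38.p6), with capitals at a match to one of the elements searched. Dnajb11 lies on the plus strand at chr16:22857595-22857894, Hspa5 on the plus strand at chr2:34771840-34772139 and Pdia4 on the minus strand at chr6:47813463-47813762.
Dnajb11: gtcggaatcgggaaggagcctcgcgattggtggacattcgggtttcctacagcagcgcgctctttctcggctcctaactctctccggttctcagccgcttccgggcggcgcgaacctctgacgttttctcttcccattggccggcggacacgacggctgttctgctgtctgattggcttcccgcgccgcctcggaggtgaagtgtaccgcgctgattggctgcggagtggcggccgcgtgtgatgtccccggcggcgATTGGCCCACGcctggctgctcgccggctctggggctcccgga
Hspa5: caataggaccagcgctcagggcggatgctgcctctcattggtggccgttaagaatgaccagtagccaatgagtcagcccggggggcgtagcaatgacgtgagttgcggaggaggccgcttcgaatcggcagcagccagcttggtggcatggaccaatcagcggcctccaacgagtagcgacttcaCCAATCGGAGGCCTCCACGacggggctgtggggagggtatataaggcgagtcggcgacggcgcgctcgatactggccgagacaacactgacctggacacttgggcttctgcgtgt
Pdia4: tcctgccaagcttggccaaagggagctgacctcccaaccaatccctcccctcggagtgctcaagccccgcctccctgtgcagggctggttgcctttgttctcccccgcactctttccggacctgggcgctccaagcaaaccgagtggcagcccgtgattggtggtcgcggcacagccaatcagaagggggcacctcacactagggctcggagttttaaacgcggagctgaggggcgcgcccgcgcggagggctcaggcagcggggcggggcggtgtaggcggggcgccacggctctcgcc
The elements were searched on both strands. ERSE, the ER stress response element, is CCAAT and CCACG separated by any 9 bases. ERSE-II is ATTGG and CCACG separated by any 1 base, the UPRE core is TGACGTGG and the ATF4 element is TGATGNAAT. TGACGTGG holds the reverse complement of CCACG, so it can overlap an ERSE or ERSE-II, but no 2 matches in the member windows overlapped. Windows were found for 37 of the 44 members (41 windows in all), and not for Atf6, Derl1, Hyou1, Manf, Sec61a1, Spcs3 and Ssr2. ERSE stood in 9 of the 41 windows (22.0%) against 0.119% of all 32851 windows: those of Calr, Canx, Creld2, Derl3, Dnajc3, Hsp90b1, Hspa5, Pdia6 and Syvn1. ERSE-II stood in 2 windows (4.88%, against 0.0365% of all), those of Dnajb11 and Herpud1. In Dnajb11 it spanned bases 8 to 18 after the start site, and in Herpud1 bases 52 to 42 before it. The UPRE core stood in the windows of Txndc5 and Txndc11 (4.88% against 0.676% of all), and the ATF4 element in 0 of 41 (0.965% of all). The Pdia4 window held no match to these letters. Only exact matches within the windows were searched, so that the absence of a match does not show that a gene lacks the elements. A match is a description of the letters and was not tested as a binding site.

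**Figure D1:**
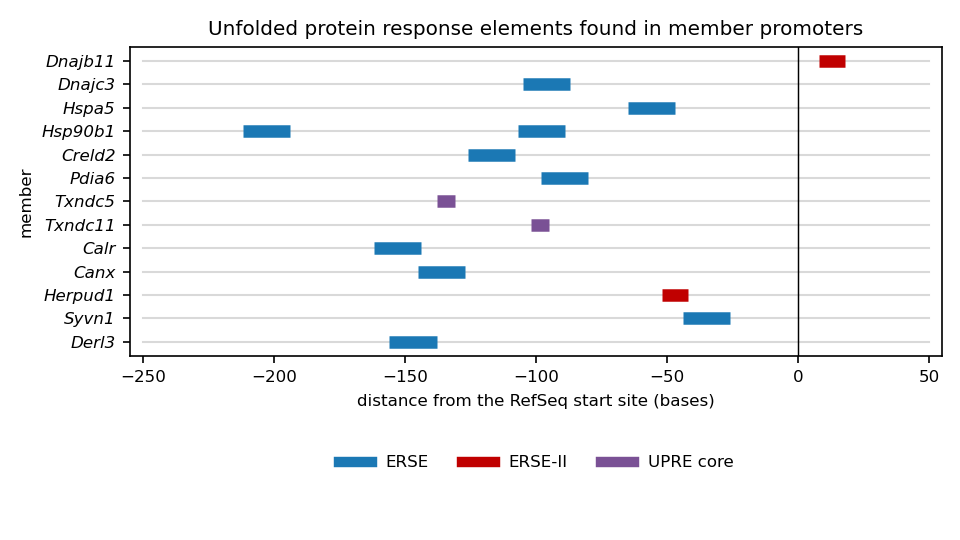
Position of each matched element (bars, in bases from the RefSeq start site) in the promoter windows of the 13 members that held one, with ERSE in blue, ERSE-II in red and the UPRE core in purple. Dnajb11 holds its ERSE-II at bases 8 to 18 after the start site, and the elements of the other members lie before it.

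The libraries were alike in size on the FPKM scale, with summed values between 366044 and 381302 and 12596 to 13592 genes above 0. The lowest sums were those of the iBP libraries, 366044 and 366722, against 374088 to 381302 in the others. Values were not rescaled for this in the main fit or in the counts of groups that did not overlap. The number of reads behind a value is unknown, and with it the counting error. Nothing in the labels ties the libraries of a group to separate mice, so that the p-values measure the spread among these libraries alone, which may be technical. On the first principal component unstimulated replicate 1 lay at -37.9, apart from unstimulated replicate 2 (-9.32) and from the stimulated and iBP libraries (10.5 to 13.3). The Treg markers Foxp3, Il2ra, Ctla4, Ikzf2, Tnfrsf18, Tigit, Cd4 and Cd3e were above 0 in every library. Their summed FPKM was 1254 to 1265 in unstimulated, 1705 to 1858 in stimulated and 1694 to 1704 in iBP libraries. Tnfrsf18, the largest part of each sum, read 599 and 565, 847 and 931, and 770 and 793 FPKM. Foxp3 read 35.5 and 47.1, 121 and 101, and 122 and 124. Il2ra and Ctla4 were also higher in both stimulated groups, and Cd3e slightly so. The rise was not shared by Ikzf2 (42.5 and 54.2, 39.7 and 44.3, 46.4 and 46.8). Nor was it shared by Tigit (129 and 125, 114 and 140, 119 and 114) or Cd4 (87.4 and 104, 84.3 and 83.1, 107 and 91.3). The part of these marker differences in the differences of Dnajb11 and Pdia4 was not tested. B-cell markers were present too, with 8 of 8 above 0 in every library and a summed FPKM of 845 to 890 in unstimulated, 874 to 924 in stimulated and 766 to 816 in iBP libraries. Of 7 plasma-cell markers, 6 were above 0 in every library, with sums of 198 to 217, 245.6 to 248.8 and 233 to 256. Tnfrsf17 (BCMA) was listed at 0 in 5 of the 6 libraries. The 13 pancreatic acinar markers were all above 0, with sums of 82.4 to 107 in unstimulated and 74.9 to 108 in iBP libraries and 102 and 311 in the stimulated ones. The 5 plasmacytoid dendritic-cell markers summed to 115 to 119, 138 to 152 and 135 to 140. Nearly all of this was Bst2, Irf8 and Tcf4, while Siglech lay between 0.144 and 1.32 FPKM and Ccr9 between 1.66 and 2.51. The 7 myeloid markers, of which 2 were above 0 throughout, summed to 66.8 to 84.0, 83.5 to 85.5 and 66.9 to 100.3. Nearly all of that was Lyz2 (65.5 to 99.5), and Csf1r, Itgam, Cd14, Adgre1, S100a8 and S100a9 stayed below 1 FPKM in every library. In bulk samples, fewer cells of a type and less RNA per cell cannot be told apart.

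Dnajb11 (ENSMUSG00000004460.17, chr16:22857845-22879634, plus strand) read 21.0 and 16.9 FPKM in unstimulated, 2.69 and 2.44 in stimulated, and 16.1 and 14.0 in iBP libraries. The 2 stimulated libraries lay far below the other 4, and the iBP libraries lay just below the unstimulated ones without overlap. The group means were 19.0 ± 2.87, 2.57 ± 0.172 and 15.0 ± 1.53 (SD, n = 2 libraries each), so that the stimulated mean was 7.39-fold below the unstimulated one and the iBP mean 5.86-fold above the stimulated one. On the log2(FPKM + 1) scale, which understates the change of low values, the fit with limma across all tested genes gave -2.48 ± 0.23 (SE, 95% interval -2.97 to -1.98; adjusted p = 0.000198) for stimulated against unstimulated. It gave 2.17 ± 0.23 (1.67 to 2.66; adjusted p = 0.00813) for iBP against stimulated, and -0.31 ± 0.23 (-0.81 to 0.18; adjusted p = 0.648) for iBP against unstimulated. The last interval does not show that the level with iBP equals the unstimulated one. Without 1 of the 2 stimulated libraries the iBP call ended, with an adjusted p from limma of 0.0563 without replicate 1 and 0.136 without replicate 2. It also ended when genes of any level were tested (0.359) or when the variance was not modelled on the level (0.200). Dnajb11 had the fourth lowest difference of the 10436 genes in the first comparison and the second highest in iBP against stimulated. It is singled out here because these results were known beforehand, so its tests are a description of a gene chosen for its pattern.

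The plasma-cell marker Jchain, which encodes the joining chain of secreted immunoglobulins, read 35.7 and 38.4 FPKM in unstimulated, 23.0 and 20.7 in stimulated, and 29.3 and 45.7 in iBP libraries. As for Dnajb11, its 2 stimulated libraries were the lowest, and its unstimulated and iBP libraries overlapped. The log2 differences of Jchain, -0.74 for stimulated against unstimulated (limma adjusted p = 0.131) and 0.72 for iBP against stimulated (0.998), did not pass the test. Mzb1, an ER protein of B and plasma cells, read 74.2 and 82.9, 83.5 and 79.5, and 62.7 and 77.4 FPKM, with its highest library among the stimulated ones. The other plasma-cell markers did not share the low stimulated values of Jchain in both libraries. Irf4, a factor of plasma cells that activated T cells also express, read 61.3 and 70.6, 113 and 119, and 110.3 and 102 FPKM, and its group means were further apart than those of the list's sum in both comparisons with unstimulated cells. Slamf7 read 14.3 and 14.0, 16.0 and 18.4, and 19.7 and 20.03 FPKM, Prdm1 2.74 and 3.85, 3.85 and 5.07, and 4.69 and 3.28, and Sdc1 9.70 and 6.78, 9.43 and 2.25, and 5.82 and 7.12. The part of plasma cells in the Dnajb11 result was not tested.

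The other 8 genes of the chaperone complex were measured in the same libraries. Hspa5, the Hsp70 that Dnajb11 serves, read 663 and 610.5 FPKM in unstimulated, 608 and 635 in stimulated and 567 and 563 in iBP libraries. One stimulated library lay between the unstimulated ones and the other just below them, the iBP libraries were the lowest, and the difference for stimulated against unstimulated was -0.03 ± 0.10 (log2, SE; 95% interval -0.25 to 0.19; adjusted p = 0.953). Dnajb11 therefore stood at 3.17% and 2.78% of the Hspa5 level in unstimulated, 0.442% and 0.385% in stimulated and 2.84% and 2.48% in iBP libraries. Hsp90b1 (GRP94), the ER Hsp90, read 197 and 229, 225 and 264, and 222 and 214 FPKM, with the unstimulated range overlapping those of both other groups and the iBP libraries just below the stimulated ones. Sdf2l1, which binds Dnajb11 directly and keeps its clients soluble, read 31.9 and 31.2, 25.1 and 35.4, and 32.4 and 24.7 FPKM. The 2 stimulated libraries of Sdf2l1 thus lay on either side of the unstimulated ones, where those of Dnajb11 lay together.

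Among the remaining partners, Hyou1 (GRP170), the nucleotide exchange factor of Hspa5, was near the limit of the test at 2.80 and 1.77, 1.70 and 2.35, and 3.24 and 2.68 FPKM. Its 95% interval for stimulated against unstimulated, -0.83 to 0.61, was the widest of the 8 partners. The disulfide isomerase Pdia6 read 104 and 96.4, 95.3 and 91.1, and 92.4 and 97.8 FPKM, and P4hb, the founding protein disulfide isomerase, 77.3 and 77.95, 78.3 and 74.7, and 81.7 and 74.8. Ppib (cyclophilin B, a prolyl isomerase) read 80.8 and 89.3, 114 and 73.0, and 82.4 and 89.6 FPKM, its 2 stimulated libraries being its highest and lowest. The differences of Pdia6, P4hb and Ppib for stimulated against unstimulated were -0.10, -0.02 and 0.10. Of the 8 partners, 1 passed the test in that comparison, Pdia4, where 0.968% of all tested genes were called higher and 0.326% lower, and their median difference was -0.03. In iBP against stimulated 0 of 8 passed with limma and 0 had an unadjusted p under 0.05, where 0.00958% of all tested genes were called higher, 0% lower, and 4.77% had such a p, so that 0 of 8 is no result about the partners. Their median was -0.04.

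**Figure D2:**
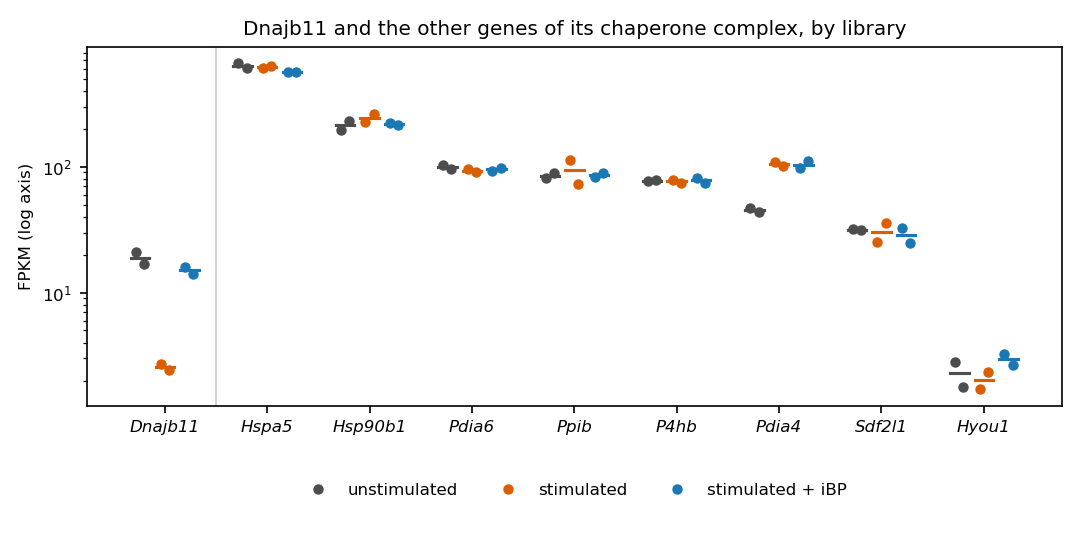
FPKM (log axis) of Dnajb11 and of the 8 other genes of its chaperone complex in each library (points) with the group mean of 2 libraries (bars), in grey for unstimulated, orange for stimulated and blue for stimulated with iBP. Dnajb11 drops to 2.69 and 2.44 FPKM in the stimulated libraries. Pdia4 moves from 47.4 and 43.5 to means 2.31 and 2.29 times as high without and with iBP. The other partners did not pass the test in any comparison, although groups of Hspa5, Hsp90b1, Hyou1 and Pdia6 did not overlap in some.

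Set against the median of these 8 partners within each library, Dnajb11 stood at -1.86 and -2.23 log2 units in unstimulated, -4.80 and -4.60 in stimulated, and -2.37 and -2.66 in iBP libraries. The group means differed by -2.65 for stimulated against unstimulated, 2.19 for iBP against stimulated and -0.47 for iBP against unstimulated. The partners include Pdia4, which rose with stimulation, and their median read 79.0 and 83.6, 102 and 82.9, and 87.4 and 93.7 FPKM. Both gaps against unstimulated cells were therefore wider than the differences of Dnajb11 itself, -2.48 and -0.31. An exact two-sided permutation test over the 2 against 2 libraries gave p = 0.333 for each of the 3 comparisons, which is the smallest p that this design allows. With all 42 other tested members in place of the 8 partners, the values were -1.05 and -1.30, -3.57 and -3.69, and -1.42 and -1.69. On both measures the stimulated libraries lay below the other 4.

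**Figure D3:**
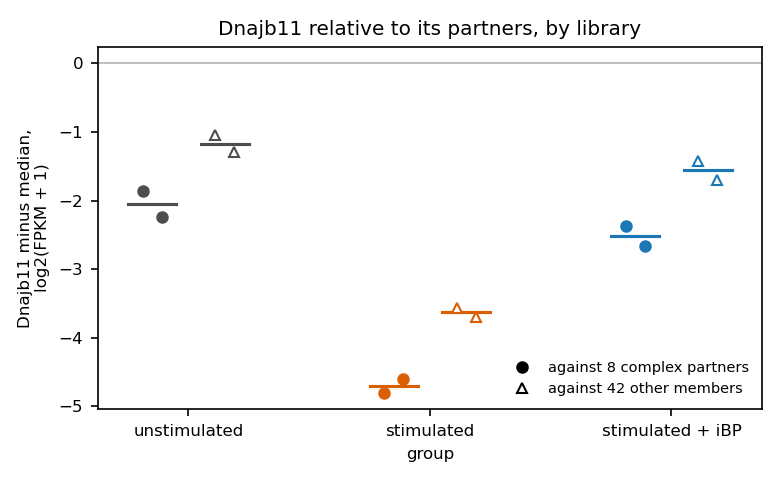
Dnajb11 minus the median of its partners on the log2(FPKM + 1) scale in each library, against the 8 genes of its complex (filled circles) and against the 42 other tested members (open triangles), with bars for the mean of 2 libraries. The stimulated libraries lie at -4.80 and -4.60 against the complex, and the other 4 between -2.66 and -1.86.

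The other 4 ER J-domain members did not pass the test in any of the 3 comparisons. Dnajb9 (ERdj4), which represses the sensor Ern1 and takes part in degradation, read 52.7 and 54.4 FPKM in unstimulated, 42.8 and 48.4 in stimulated and 54.8 and 56.0 in iBP libraries. Its stimulated values lay below those of both other groups without overlap, but the differences of -0.23 ± 0.14 and 0.28 ± 0.14 (adjusted p = 0.612 and 0.998) did not pass. Dnajc3 (p58IPK), a co-chaperone that also restrains PERK, read 34.5 and 31.6, 32.0 and 26.3, and 27.8 and 23.8 FPKM, with iBP against unstimulated at -0.35 ± 0.17 (adjusted p = 0.448). Dnajc10 (ERdj5), a disulfide reductase with a J domain, read 3.93 and 6.76, 5.51 and 5.04, and 4.09 and 4.67 FPKM. Sec63, the J-domain subunit of the translocon, read 7.33 and 7.39, 4.36 and 9.59, and 6.77 and 4.66 FPKM, with its highest and lowest library both in the stimulated group, and iBP against unstimulated at -0.33 ± 0.33 (adjusted p = 0.764).

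Pdia4 (ERp72; ENSMUSG00000025823.9, chr6:47796141-47813430, minus strand) was the other member past the test. It read 47.4 and 43.5 FPKM in unstimulated, 109 and 101 in stimulated, and 97.7 and 110.3 in iBP libraries. Both stimulated groups lay above the unstimulated one without overlap and overlapped each other. Pdia4 rose by 1.19 ± 0.13 in stimulated against unstimulated (log2, SE; adjusted p = 0.000923) and by 1.18 ± 0.13 in iBP against unstimulated (adjusted p = 0.000878). The difference between iBP and stimulated was -0.01, with a 95% interval of -0.30 to 0.27. Both of its calls ended when genes of any level were tested (limma adjusted p = 0.0545 and 0.0607) and when the variance was not modelled on the level (0.116 and 0.125). Pdia4 and Dnajb11, proteins of the same complex, thus changed in opposite directions with stimulation.

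The microRNA gene Mir704 lies within Pdia4 on the same strand (chr6:47803576-47803652). Its hairpin of 77 bases covers the first 14 bases of exon 6 in the Pdia4 transcript of 10 exons, and its other bases lie in the intron before that exon. The mature sequence, at chr6:47803590-47803610 in that intron, is given because the row of Mir704 moved with its host, with the seed, bases 2 to 8, in capitals.
mmu-miR-704: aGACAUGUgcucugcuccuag
The Mir704 row read 7.9e-05 and 2.49 FPKM in unstimulated, 10.6 and 14.8 in stimulated and 7.75 and 16.2 in iBP libraries, with a difference of 2.86 ± 0.50 for stimulated against unstimulated (adjusted p = 0.0166). Reads of the host transcript cannot be told apart from those of Mir704. Zfp786, the nearest gene of the table on one side of Pdia4 at 5835 bases, was listed at 0 in 4 of the 6 libraries and at no more than 0.220 FPKM. Ezh2, the nearest on the other side at 200799 bases, which encodes the methyltransferase of Polycomb repressive complex 2, read 7.01 and 5.76, 13.5 and 17.8, and 14.1 and 15.6 FPKM and rose by 1.17 in stimulated against unstimulated (adjusted p = 0.0263).

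The remaining isomerases did not pass in any comparison. Pdia3 (ERp57), which folds glycoproteins bound to calnexin and calreticulin, was the most abundant of them at 626 and 607 FPKM in unstimulated, 529 and 575 in stimulated and 512 and 486 in iBP libraries. Its values with iBP lay below those of both other groups, and iBP against unstimulated stood at -0.30 ± 0.10 (unadjusted p = 0.0120, adjusted p = 0.217). Txndc5 (ERp46) read 10.3 and 8.47, 8.66 and 11.9, and 8.41 and 7.38 FPKM, and Txndc11 lay between 4.46 and 7.51. Pdia5 was at the edge of detection, with values of 0, 1.84, 0.607, 0.264, 0 and 0.403 FPKM in the order unstimulated, stimulated and iBP. The lectin chaperones held within narrow ranges, Calr (calreticulin) between 182 and 200.1 FPKM and Canx (calnexin) between 109 and 116. Manf, a secreted cofactor of Hspa5, lay between 83.0 and 97.3, and Creld2, an ER stress-induced isomerase, between 9.62 and 16.2.

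The sensors and factors of the unfolded protein response did not pass either. Xbp1, whose mRNA Ern1 splices into the active form, read 268 and 248.9 FPKM in unstimulated, 281 and 289 in stimulated and 266 and 271 in iBP libraries. Its stimulated libraries were the highest, by 0.14 ± 0.11 (adjusted p = 0.706), and spliced and unspliced Xbp1 cannot be told apart in a value per gene. The sensor gene Ern1 read 2.11 and 3.48, 1.39 and 2.39, and 2.12 and 4.25 FPKM, with iBP against stimulated at 0.51 ± 0.37 (adjusted p = 0.998), and Atf6 read 4.59 and 5.90, 5.76 and 4.20, and 5.54 and 6.94. Both were low and their groups overlapped in stimulated against unstimulated.

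Ddit3 (CHOP), the stress factor that promotes cell death, read 86.4 and 78.3 FPKM in unstimulated, 55.8 and 64.6 in stimulated and 68.8 and 77.2 in iBP libraries. Its 3 groups stood in the same order as those of Dnajb11 and did not overlap, but the size was smaller: -0.45 ± 0.14 for stimulated against unstimulated (unadjusted p = 0.00768, adjusted p = 0.199) and 0.28 ± 0.14 for iBP against stimulated (adjusted p = 0.998). Over the 6 libraries Ddit3 was the member whose log2(FPKM + 1) was most like that of Dnajb11 (Pearson r = 0.864), and Xbp1 the least (r = -0.801). These values describe 6 libraries in 3 groups and carry no test.

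Of the 8 genes of ER-associated degradation, which extracts misfolded proteins for the proteasome, 0 passed with limma in any comparison and 0 had an unadjusted p under 0.05. Over all tested genes such a p was reached by 10.8% (stimulated against unstimulated), 4.77% (iBP against stimulated) and 12.2% (iBP against unstimulated), so that 0 of 8 does not set these genes apart. Herpud1, a stress-induced organiser of the degradation complex whose promoter window also holds an ERSE-II, read 86.6 and 87.1 FPKM in unstimulated, 87.3 and 85.5 in stimulated and 89.4 and 80.8 in iBP libraries. The 2 members with an ERSE-II in their promoter window therefore differed by -0.01 (Herpud1) and -2.48 (Dnajb11) in stimulated against unstimulated. Derl1, Derl2 and Derl3 encode derlins of the export channel. Derl1 lay between 64.2 and 80.3 FPKM, and Derl2 read 19.0 and 20.5, 20.0 and 22.5, and 17.6 and 15.6, with iBP against stimulated at -0.34 ± 0.18 (adjusted p = 0.998).

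Derl3, a derlin that is abundant in secretory cells, was at 2.46 and 1.69 FPKM in unstimulated, 1.78 and 0.0360 in stimulated and 0.6999 and 0.346 in iBP libraries. It had the largest difference among members that did not pass, -1.01 ± 0.47 for iBP against unstimulated (adjusted p = 0.417), and its 2 stimulated libraries lay further apart than any 2 group means. The mannosidase-like Edem1 and Edem2 lay between 10.2 and 14.5 FPKM, and the ubiquitin ligase subunits Sel1l and Syvn1 (HRD1) between 8.23 and 10.3 and between 3.47 and 4.82.

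The 12 genes of translocation and signal peptide cleavage, Sec63 included, included no call. The channel subunit Sec61a1 read 53.8 and 62.6 FPKM in unstimulated, 54.97 and 74.8 in stimulated and 55.6 and 55.9 in iBP libraries, above its small subunits Sec61b (11.7 to 17.0) and Sec61g (21.3 to 31.0). The 4 translocon-associated genes Ssr1, Ssr2, Ssr3 and Ssr4, which help certain signal peptides to engage the channel, lay between 36.0 and 63.9 FPKM. The signal peptidase genes Spcs1 and Spcs3 lay between 42.8 and 62.0, and Spcs2 between 86.5 and 117. Sec62, an auxiliary translocon subunit, lay between 40.6 and 51.9. In this group 0 of 12 passed with limma in any of the 3 comparisons, and 0 had an unadjusted p under 0.05, against the same 10.8%, 4.77% and 12.2% of all tested genes. The medians were -0.05 (stimulated against unstimulated), -0.03 (iBP against stimulated) and -0.02 (iBP against unstimulated).

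**Figure D4:**
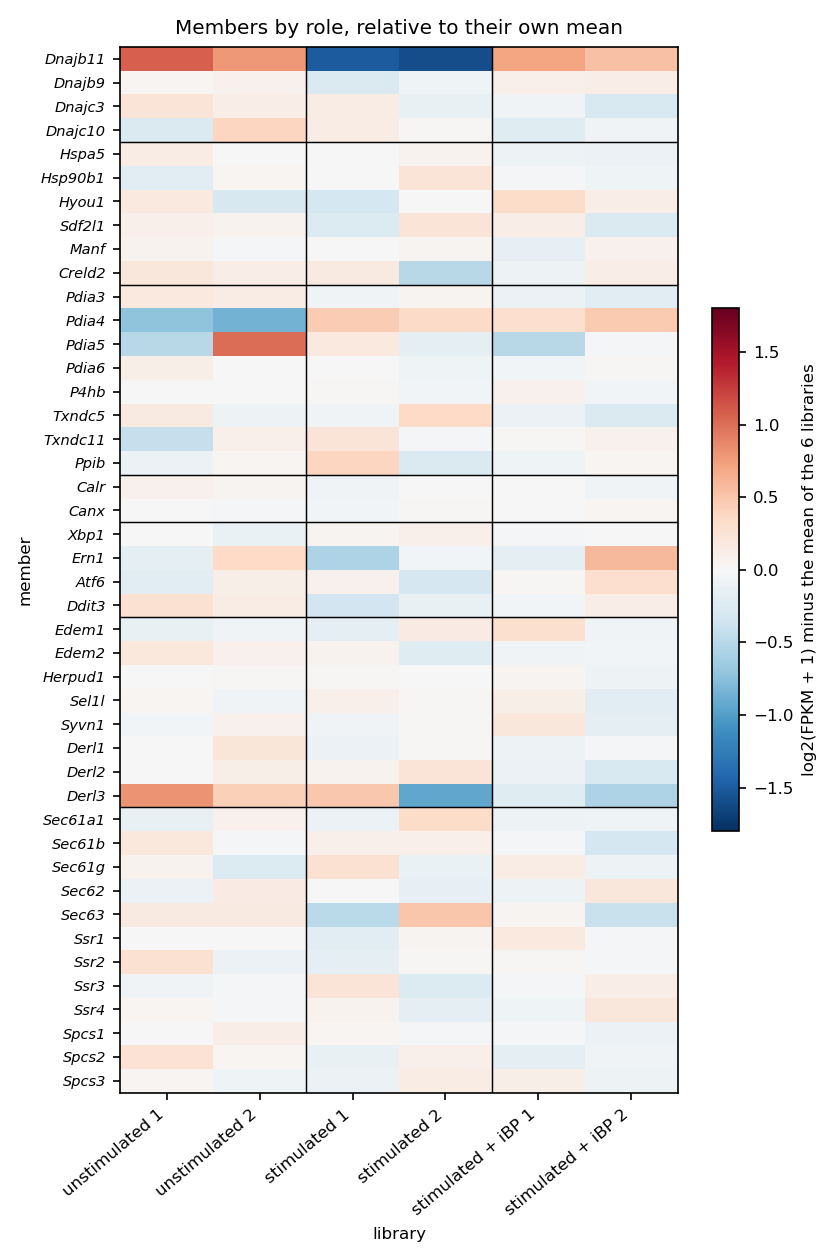
Each of the 44 members by library, as log2(FPKM + 1) minus the member's mean over the 6 libraries (colour scale), ordered by role with lines between roles and between groups. Dnajb11 is the row with 2 low stimulated libraries and Pdia4 the row with 2 low unstimulated ones, and the strong colours of Pdia5 and Derl3 belong to values of at most 2.46 FPKM.

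In levels, the members spanned more than the conditions did. Averaged over the groups, 6 members stood at 100 FPKM or more, 27 from 10 to under 100, 10 from 1 to under 10, and 1 below 1. Hspa5 led with group means of 565 to 637 FPKM, ahead of Pdia3 at 499 to 617, and their libraries overlapped in the unstimulated group. Xbp1 followed at 258 to 285, then Hsp90b1, Calr and Canx. Pdia6, Manf, Ppib and Herpud1, next to each other in the order at 96.1, 92.2, 88.2 and 86.1 FPKM over all groups, each had a range over the libraries that overlapped that of its neighbour in the order. All members together made up 0.894% to 0.924% of the summed FPKM in the 6 libraries.

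Across the members, stimulated against unstimulated had 1 call upward and 1 downward among 43 (Pdia4 and Dnajb11), where 0.968% of all tested genes were called higher and 0.326% lower. An unadjusted p under 0.05 was reached by 3 of 43 members (Dnajb11, Pdia4 and Ddit3) and by 10.8% of all tested genes. Groups that did not overlap were found for 2 members upward and 7 downward, against 18.7% and 19.1% of all tested genes. Leaving out Dnajb11, the 42 other members had a median difference of -0.04 against -0.00 over all genes, 16 of them were positive, and 40 lay within 0.5 log2 units of 0, against 83.6% of all genes. The median 95% half-width was 0.36 log2 units for these members and 0.57 over all genes, so that the members were measured more precisely. Whether they varied less at equal precision was not tested.

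In iBP against stimulated, Dnajb11 was the call upward among 43 members, and the same gene was the 1 call upward of all 10436 genes (0.00958%). The count of calls downward was 0 among the members and 0 over all genes (0%). An unadjusted p under 0.05 was reached by 1 member, Dnajb11, and by 4.77% of all genes. The groups did not overlap for 4 members upward (Dnajb11, Ddit3, Dnajb9 and Hyou1, against 13.6% of all genes) and for 9 downward (21% of all genes). The 42 other members had a median of -0.02 against -0.03 over all genes and ranged from -0.34 (Derl2) to 0.51 (Ern1, adjusted p = 0.998). Their median 95% half-width was 0.36 log2 units, and differences smaller than that could not be told from 0 for a typical member. These intervals are not adjusted for the number of genes tested, so that a call required a larger difference.

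In iBP against unstimulated, which shares its libraries with both other comparisons, 1 of 43 members was called higher, Pdia4, and 0 lower with limma, against 1.03% and 0.728% of all tested genes. An unadjusted p under 0.05 was reached by 2 members, Pdia4 and Pdia3, and by 12.2% of all genes. Groups did not overlap for 4 members upward (Pdia4, Dnajb9, Edem1 and Ssr3, against 18.1% of all genes) and 15 downward (23.9%). Those 15 included Hspa5, Pdia3, Calr, Dnajb11, Dnajc3 and the 3 derlins, with differences from -0.09 (Calr) to -1.01 (Derl3). The median over the 42 other members was -0.04 and that over all genes -0.03.

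**Figure D5:**
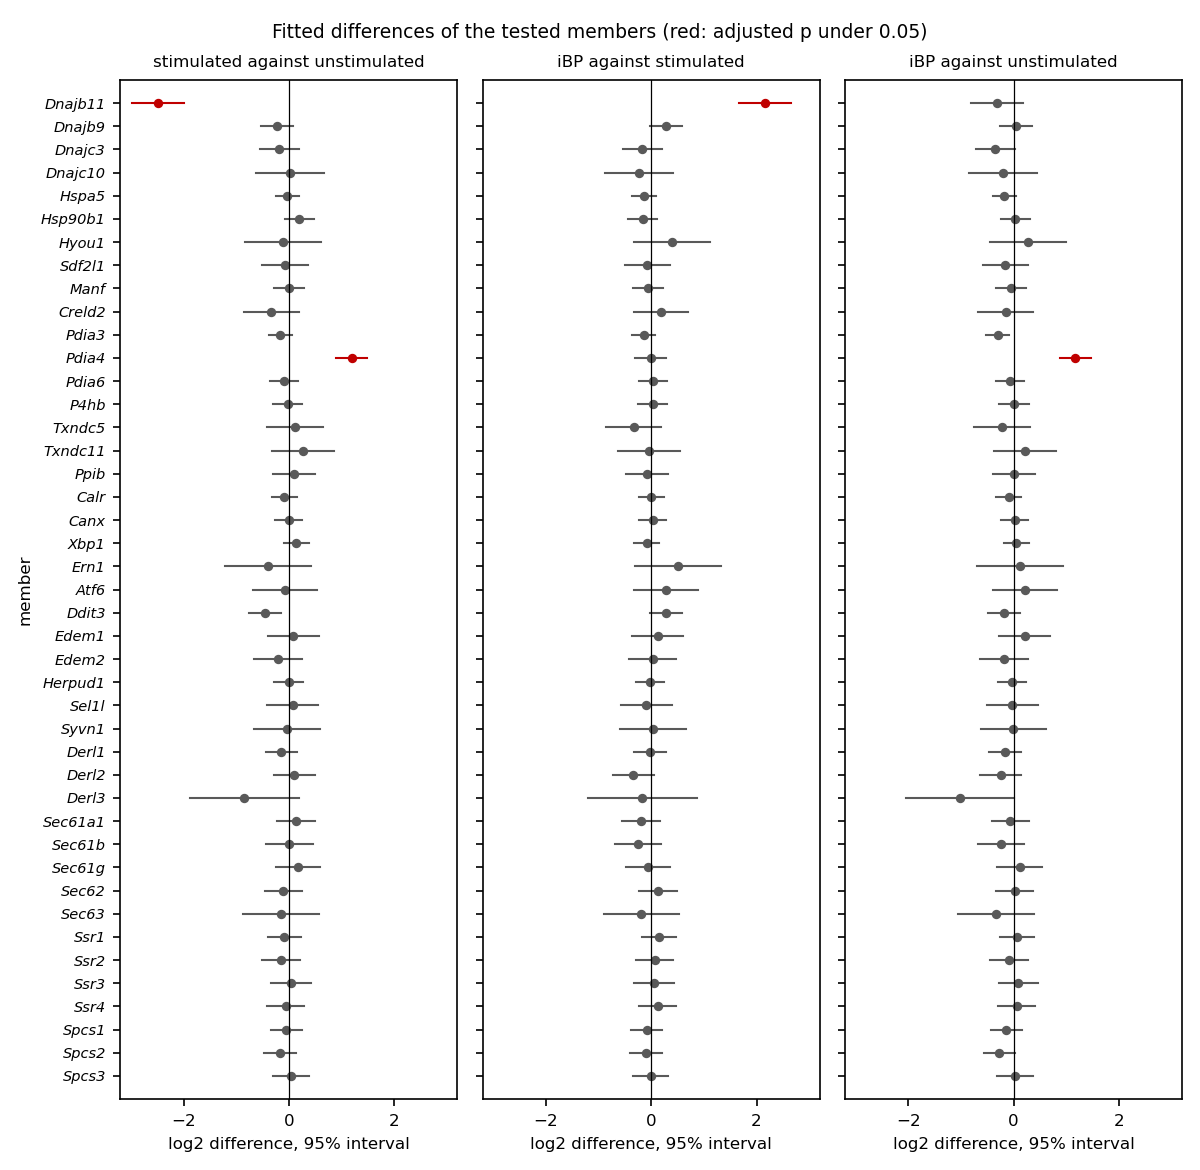
Fitted log2 differences (points) with 95% intervals (lines) of the 43 tested members in the 3 comparisons, in red where the adjusted p is under 0.05. Dnajb11 stands at -2.48 and 2.17 in the comparisons with stimulated cells and Pdia4 at 1.19 and 1.18 in the comparisons against unstimulated cells, and among the other members the intervals of Ddit3 (stimulated against unstimulated) and Pdia3 (iBP against unstimulated) leave out 0.

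Genes around this machinery were taken from 8 further lists, and 0 of their genes passed with limma in any of the 3 comparisons. Of all tested genes, 0.968% were called higher and 0.326% lower in stimulated against unstimulated. The shares were 0.00958% and 0% in iBP against stimulated, and 1.03% and 0.728% in iBP against unstimulated. The count of 0 therefore does not set these lists apart. In stimulated against unstimulated, where 10.8% of all tested genes had an unadjusted p under 0.05, the PERK and ATF4 arm, which restores amino acid supply and halts translation under stress, had 8 of 12 differences above 0, 4 unadjusted p-values under 0.05 and a median of 0.07. It ran from -0.59 for the sensor gene Eif2ak3 (adjusted p = 0.270) to 0.73 for Atf3 (adjusted p = 0.0507). Other sensors and factors (6 of 11 above 0, median 0.03) ran from Tmbim6 (-0.24) to Creb3l2 (0.28), with 0 unadjusted p-values under 0.05. Other folding enzymes and lectins (16 of 26, median 0.04) ran from Fkbp7 (-0.63) to P3h1 (0.95), with 1. Further J-domain proteins (12 of 28, median -0.04) ran from Dnajb2 (-0.55, adjusted p = 0.540) to Dnajb5 (0.32), with 0. Dnajb11, at -2.48, had the 4th lowest difference of all 10436 tested genes, so that lying above it does not set these 28 apart. Further degradation genes (7 of 22, median -0.02) ran from Edem3 (-0.32) to Ubxn8 (0.40), with 0, and targeting and translocation genes (7 of 15, median -0.04) from Wrb (-0.54) to Srp68 (0.21), with 0. N-glycan assembly (15 of 22, median 0.09) ran from Dpm1 (-0.88) to Alg8 (0.82), with 4, and COPII transport (13 of 24, median 0.03) from Bet1 (-0.66) to Sec24a (0.87), with 3.

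In iBP against stimulated, the medians of the 8 lists lay between -0.17 and 0.01. The differences ran from Asns (-0.39) to Trib3 (0.46) in the PERK and ATF4 arm, from Map3k5 (-0.25) to Ero1lb (0.32) in other sensors, and from Cnpy3 (-0.61) to Cnpy2 (0.38) in folding enzymes. They ran from Dnajc15 (-0.39) to Dnajc18 (0.47) in J-domain proteins, from Man1b1 (-0.48) to March6 (0.39) in degradation, and from Asna1 (-0.22) to Srp68 (0.19) in targeting. In N-glycan assembly they ran from Tusc3 (-0.91, adjusted p = 0.683), an oligosaccharyltransferase subunit, to Dpm1 (0.98, adjusted p = 0.998), and in COPII transport from Sec24d (-0.38) to Tmed3 (0.23). The numbers above 0 were 5 of 12, 2 of 11, 12 of 26, 14 of 28, 9 of 22, 5 of 15, 9 of 22 and 10 of 24 in that order. The unadjusted p was under 0.05 for 0, 0, 2, 1, 0, 0, 4 and 1 of them, and for 4.77% of all tested genes.

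In iBP against unstimulated the medians lay between -0.16 and 0.02. The highest and lowest genes were Trib3 (0.76) and Asns (-0.39) in the PERK and ATF4 arm, Ero1l (0.28) and Tmbim6 (-0.31) in other sensors, P3h1 (0.94) and Cnpy4 (-0.82) in folding enzymes, and Dnajb12 (0.48) and Dnajc9 (-0.47) in J-domain proteins. They were Ubxn8 (0.18) and Ube2j1 (-0.38) in degradation, Srp68 (0.40) and Wrb (-0.72) in targeting, Alg8 (0.54) and Dpm2 (-0.52) in N-glycan assembly, and Sec24a (0.90) and Sec23b (-0.56) in COPII transport. The numbers above 0 were 6 of 12, 5 of 11, 13 of 26, 12 of 28, 8 of 22, 5 of 15, 11 of 22 and 10 of 24 in that order. The unadjusted p was under 0.05 for 4, 2, 2, 1, 1, 0, 1 and 4 of them, and for 12.2% of all tested genes. The lowest adjusted p among the 16 named genes was that of Sec23b, 0.135.

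The antisense gene Gm30505 overlaps Dnajb11 and was listed at 0 in 5 of the 6 libraries. The nearest gene that does not overlap it is Tbccd1, which starts 175 bases away on the opposite strand (chr16:22813214-22857669). Tbccd1, which encodes a centrosomal protein, read 0.820 and 2.94 FPKM in unstimulated, 3.79 and 4.83 in stimulated and 2.61 and 2.56 in iBP libraries. Its order across groups was the reverse of that of Dnajb11 for stimulated against unstimulated, at 0.98 ± 0.38 (log2, SE; adjusted p = 0.354), and it did not pass. Crygs and Fetub, also near the locus, were listed at 0 in all 6 libraries, and Ahsg at 0 in 5. Whether the libraries keep the strand is not stated in the sources used here.

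The tested genes whose values were most like those of Dnajb11, among 2603 that varied by at least 1 log2 unit, were Ccdc92 (Pearson r = 0.966 over 6 libraries), Tbx6 (0.963), Snord38a (0.957), Ntpcr (0.952) and Cfap74 (0.948). Ccdc92 read 5.75 and 4.61 FPKM in unstimulated, 1.91 and 1.14 in stimulated and 4.23 and 3.47 in iBP libraries. All 5 were expressed at a lower level than Dnajb11 outside the stimulated group, at no more than 7.57 FPKM in any library. In the stimulated libraries Tbx6 read 0.231 and 0.163 FPKM and Cfap74 0.187 and 0.0869, near the floor. None of the 5 passed the test in stimulated against unstimulated, where limma gave -1.30 for Ccdc92 (adjusted p = 0.0744) and -1.23 for Cfap74 (adjusted p = 0.174).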

How the data were processed

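The authors deposited 1 table of FPKM values with a column for each of the 6 libraries. HISAT2 2.2.1, StringTie 2.1.1 and mm10 are named in the submitters' processing notes, and the sources used here do not state the annotation, filters, strand or treatment of multi-mapped reads, so overlapping genes may share reads. Values were analysed as log2(FPKM + 1). Genes at 1 FPKM or more in at least 2 libraries were fitted together with limma 3.58.1 (R 4.3.3; 3 groups, variance trend, 3 residual and 8.52 prior degrees of freedom), two-sided, with Benjamini-Hochberg adjustment over all 10436 tested genes and an adjusted p under 0.05 as the threshold. The script was tested on simulated data. Dnajb11 was also set against the median of 8 partners and compared by exact permutation. The members, partners, lists and the rule for named genes were chosen with earlier results of these data known. By that rule Dnajb11, its partners, the other J-domain members, the stress factors, called members and the 5 largest differences per comparison are given in every library, with the neighbours of called members, the 5 genes most like Dnajb11 and the highest and lowest gene of each further list. A few other members are given in every library by choice after their values were seen. No chance test of a list was made. Coordinates are from GENCODE M21 (GRCm38, the assembly of mm10), in which 43 members matched once and Ddit3 matched 2 genes. Promoter and microRNA sequences are from RefSeq (GRCm38.p6). Matplotlib 3.10.9 drew the plots.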

Additional observations from a re-analysis of the deposited data

How the results depend on the processing

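Leaving out the filter on low values or the variance trend had the widest effect. Without the filter, members past the test went from 2 to 1 (stimulated against unstimulated), 1 to 0 (iBP against stimulated) and 1 to 0 (iBP against unstimulated), and all genes from 135 to 12, 1 to 0 and 183 to 11. Without the trend the members were again 1, 0 and 0, and all genes 12, 0 and 9. Dnajb11 stayed at 2.17 in iBP against stimulated under both, with an adjusted p of 0.359 and 0.200, and Pdia4 at 1.19 with 0.0545 and 0.116 (stimulated against unstimulated) and at 1.18 with 0.0607 and 0.125 (iBP against unstimulated). Without the filter 16033 genes were tested. The cause of the lost calls was not tested for either alternative. Dnajb11 in stimulated against unstimulated passed under all 16 alternatives (-2.83 to -2.33; highest adjusted p = 0.0444). With only the 2 groups compared in the fit, 77 genes passed in stimulated against unstimulated.

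Leaving out each library in turn gave 54 to 141, 0 to 5 and 53 to 190 genes, and 2, 0 to 1 and 1 members. The count of all genes fell by over 1.5 times in stimulated against unstimulated without unstimulated replicate 1 (84), stimulated replicate 1 (81) or 2 (54), and in iBP against unstimulated without unstimulated replicate 1 (95) or iBP replicate 1 (76) or 2 (53). In iBP against stimulated it was 5 and 3 without iBP replicates 1 and 2 and 0 without either stimulated library. Dnajb11 in iBP against stimulated lay between 2.07 and 2.26, and lost its call without either stimulated library, which leaves that group with 1 library assumed to vary like the others.

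The replicate number shared by the groups was not found to pair the libraries (correlation of deviations -0.0462 to -0.0118). With a replicate block, 79, 1 and 109 genes passed and the members' counts stayed at 2, 1 and 1. The gap between Dnajb11 and its partners kept its direction under every alternative run. Rescaling moved the median of all genes by less than 0.1, and members not called here were not called under any alternative. Read depth is unknown, so the precision of low members (Hyou1, Ern1, Derl3, Pdia5) rests on 2 libraries a group.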
